A study of Mus musculus with 30 samples.

Results

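CD146-positive mesenchyme is a stromal population of the newborn mouse thymus, sorted here as cells that carry CD146 on their surface and lack both the epithelial marker EpCAM and the endothelial marker CD31. It made up 6 of the 30 RNA sequencing libraries and was set against the mean of the 4 other sorted populations, each of 6 libraries: CD140a-positive mesenchyme (called CD140a below), CD31-positive endothelium (Endo), and the EpCAM-positive epithelial cells of the cortex (cTEC, with high Ly51) and of the medulla (mTEC, with little or no Ly51). In each population 4 libraries came from pups given aflibercept (Trap) and 2 from pups given human Fc (hFC) as control. All pups were B6.SJL newborns of both sexes, injected on postnatal day 1, and the thymus was taken on day 3. Aflibercept is a soluble fusion of VEGF receptor parts that captures VEGF-A. Cells positive for CD45, Ter119, CD3, CD4 or CD8 were gated out of all 5 populations. Nothing in the labels says how many pups went into a library or that libraries came from separate pools, so the p-values below rest on the variation among these libraries, which may be technical in part.

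Mural cells are the pericytes of capillaries and the smooth muscle cells of arteries and veins, which wrap the endothelial tube. They are recruited by platelet-derived growth factor from endothelium, keep their identity through NOTCH3 signalling and set vessel tone through calcium entry, myosin phosphorylation and cyclic GMP. In the thymus they surround the vessels through which progenitors enter and mature T cells leave. CD146 is found on mural cells and on endothelium, and CD140a, the alpha receptor for platelet-derived growth factor, on fibroblasts.

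Expression was given as FPKM, a fragment count scaled by gene length and library size. Differences are in log2(FPKM + 1), CD146 minus the mean of the 4 other population means, with the standard error of limma's fit. This scale understates the change of genes near 0. A gene was called at an adjusted p under 0.05 (limma, Benjamini-Hochberg over 16425 genes), and "higher than each" means called in the same direction in all 4 pairwise comparisons. The number of reads behind each library is unknown, since the file holds FPKM without counts. Summed FPKM was 184608 to 190447 in CD146 libraries within a range of 184608 to 241993 over all 30, and 11264 to 11694 genes reached 1 FPKM in a CD146 library. Pearson correlations of log2(FPKM + 1) were 0.931 to 0.969 between CD146 libraries, and CD146 libraries correlated at a median of 0.854 with CD140a, 0.789 with Endo, 0.762 with cTEC and 0.654 with mTEC libraries.

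The markers of mural cells were high in the population. Rgs5, Myh11, Notch3 and Abcc9, which mark mural cells, were all higher in CD146 than in each other population, and no other library reached the lowest CD146 library for any of them. The sorting genes also followed the gates: Mcam, the gene of CD146, averaged 131 ± 18 FPKM in CD146 and 110 ± 18.7 FPKM in Endo, against 1.87 to 3.75 FPKM in the other populations (SD, n = 6 each). Pdgfra, the gene of CD140a, averaged 2.16 FPKM in CD146 and 121 FPKM in CD140a.

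CD146 mesenchyme differed from the rest of the stroma in 3146 genes that were higher (19.2% of those tested) and 4297 that were lower (26.2%). Scaling every library to the same sum (TPM) moved the median of all genes by 0.13 on the log2 scale and turned the split to 4014 higher and 3525 lower. Higher than each of the 4 populations were 741 genes (4.51%), and lower than each were 245 (1.49%). In 393 genes (2.39%) the lowest CD146 library stood above the highest of the 24 other libraries, and in 74 genes (0.451%) the highest CD146 library stood below the lowest of them. Among the 3146 higher genes the next highest population was CD140a for 38.1%, Endo for 28.2%, mTEC for 19.9% and cTEC for 13.8%. The median difference over all genes tested was -0.08. Counts of the gene lists below are to be read beside 19.2% higher and 26.2% lower over all genes tested.

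Pericyte genes had the largest median difference of the 23 gene lists examined. All 19 tested members of a pericyte list were higher, 16 of them than each other population, with a median difference of 3.58. The 19 include Mcam, the gene of the sorted marker CD146, whose level is a check of the sort and no finding. Rgs5, a brake on G protein signalling and the best known pericyte marker, was the most abundant transcript of the population. It stood at 4382, 2783, 4115 and 3884 FPKM in the CD146 Trap libraries and at 3260 and 4262 FPKM in the CD146 controls. In mTEC it ran from 425 to 689 FPKM, in Endo from 47.1 to 86.1 FPKM, in cTEC from 11.6 to 44.9 FPKM and in CD140a from 0.51 to 39.4 FPKM, so no library of another population came near. The Rgs5 difference was 6.19 ± 0.43 (SE, adjusted p 4.06e-12 by limma). Rgs5 lies on the plus strand at chr1:169655501-169695813 (GRCm38, GENCODE M21).

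**Figure D1:**
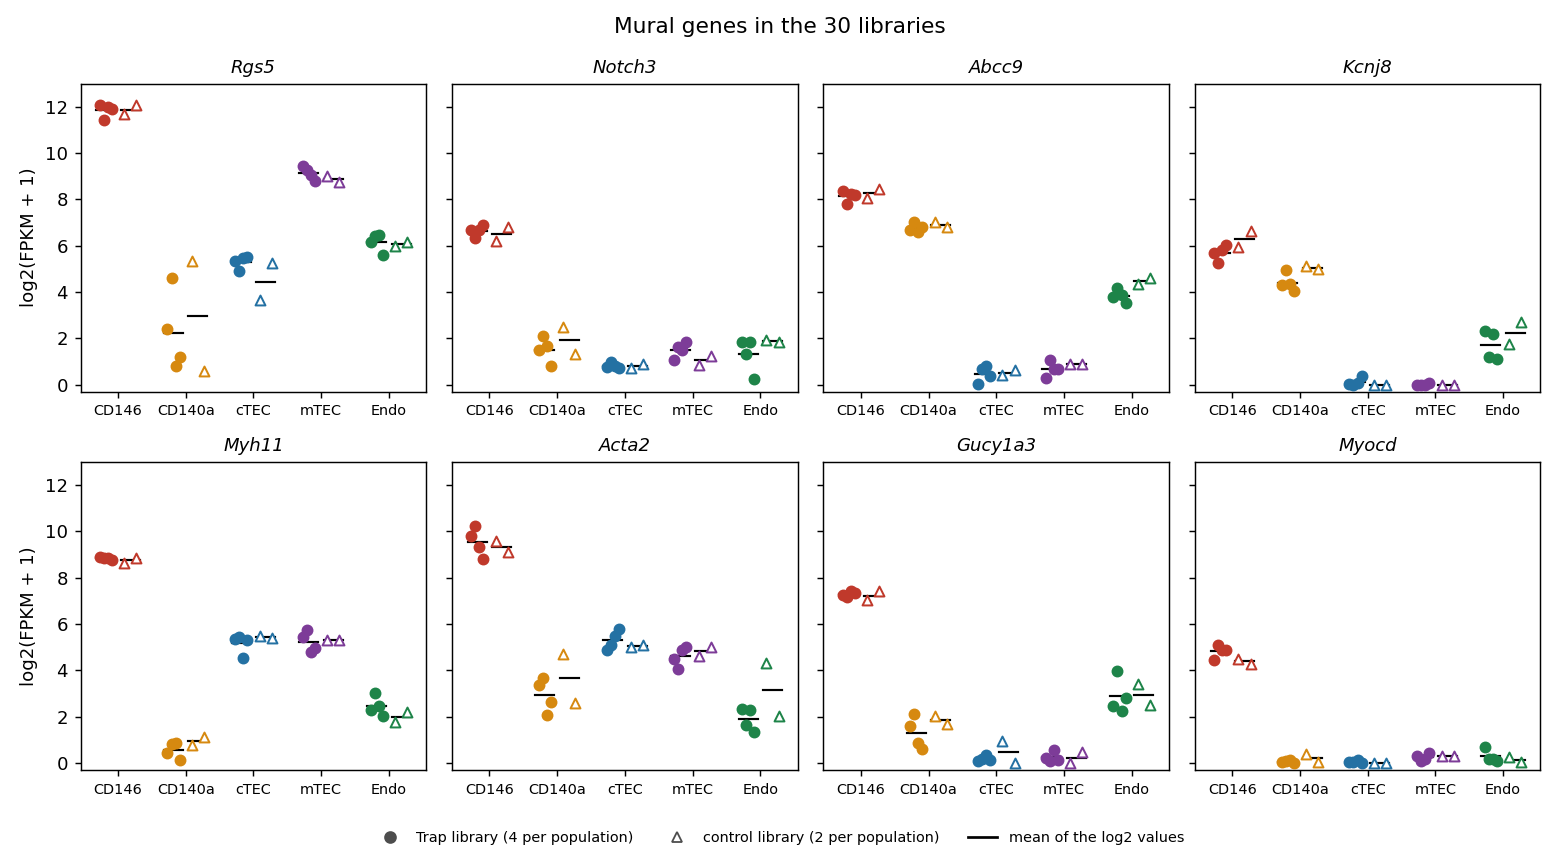
Expression of 8 mural genes in each of the 30 libraries, as log2(FPKM + 1), by population with CD146 at the left. Filled circles are Trap libraries, open triangles control libraries and black lines the means of the log2 values of each treatment; the 6 CD146 libraries stand above all 24 others in each of the 8 panels, and Abcc9 and Kcnj8 are next highest in CD140a.

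Notch3, a receptor that mural cells use to read Jagged ligands, had 102, 79.8, 101 and 117 FPKM in CD146 Trap libraries and 72.4 and 110 FPKM in CD146 controls. Its highest value in any other library was 4.59 FPKM, in CD140a, and the difference was 5.26 ± 0.20 (adjusted p 1.35e-17). Pdgfrb, the receptor through which endothelial platelet-derived growth factor recruits mural cells, averaged 166 ± 24.9 FPKM in CD146 and 36.6 ± 4.09 FPKM in CD140a. Abcc9 and Kcnj8 encode the sulphonylurea receptor SUR2 and the pore Kir6.1 of the ATP-sensitive potassium channel of vascular muscle. Abcc9 averaged 293 ± 45 FPKM in CD146, 113 ± 12.8 FPKM in CD140a and 16 FPKM in Endo, and stayed below 1.1 FPKM in every epithelial library. Kcnj8 averaged 61.2 ± 21.2 FPKM in CD146 and 24.7 ± 7.64 FPKM in CD140a. CD140a mesenchyme thus held both subunits of this channel at a lower level. Vtn, the secreted adhesion protein vitronectin, averaged 37.9 FPKM in CD146 and at most 1.83 FPKM elsewhere, and the proteoglycan gene Cspg4 (NG2) averaged 25.6 against at most 5.14 FPKM. The pericyte members that did not pass against each population were Mcam, Rgs4 (mTEC next, 78.4 FPKM) and Tbx18, which was higher in CD140a at 6.65 FPKM than in CD146 at 4.21 FPKM. Zic1 was not tested and stayed below 1 FPKM in CD146.

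Contractile genes of smooth muscle were high beside the pericyte genes. Of 28 members 26 were higher, 22 of them than each population, with a median difference of 2.52. Acta2, alpha smooth muscle actin, had 899, 1217, 633 and 451 FPKM in CD146 Trap libraries and 759 and 557 FPKM in CD146 controls, and no other library passed 53.7 FPKM. Its difference was 5.63 ± 0.28 (adjusted p 5.97e-15). The coefficient of variation over the 6 CD146 libraries was 36.7% for Acta2 and 6.42% for Myh11. Myh11, the smooth muscle myosin heavy chain, had 480, 464, 458 and 431 FPKM in CD146 Trap libraries and 399 and 459 FPKM in CD146 controls. Both epithelia held Myh11 at 22.3 to 52.0 FPKM, above Endo (2.38 to 7.10 FPKM) and CD140a (0.10 to 1.17 FPKM), and the CD146 difference was 5.43 ± 0.14. Myl9, the regulatory light chain, averaged 217 ± 26.3 FPKM and Mylk, the kinase that phosphorylates it, 178 ± 25.1 FPKM in CD146, against at most 9.34 and 14.6 FPKM on average elsewhere. Fhl5, a LIM-domain cofactor, averaged 55.7 FPKM in CD146 and 1.42 FPKM in Endo, and Map3k7cl averaged 409 FPKM in CD146 and 42.0 FPKM in cTEC. The gamma actin Actg2 (55.5 FPKM), the intermediate filament gene Des (44.7 FPKM) and the integrin Itga8 (65.3 FPKM) were also higher than in each population.

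Some markers of mature smooth muscle stood out less. Tagln, the calponin relative SM22, averaged 9.40 FPKM in CD146 and 9.78 FPKM in cTEC, and so was higher than the mean of the 4 (1.43 ± 0.27) but not than cTEC. Part of the Tagln gene overlaps Pcsk7 on the opposite strand, and the files do not say whether counting used strand. Cnn1, basic calponin, had 12.1, 28.8, 4.52 and 2.41 FPKM in CD146 Trap libraries and 20.01 and 6.80 FPKM in CD146 controls, with a difference of 2.67 ± 0.29. Smtn (14.9 FPKM in CD146) and Sncg (1.74 FPKM) did not pass the test, but Smtn was called higher in 6 alternatives, among them TPM scaling (0.55, adjusted p 0.021) and the reference without Endo (0.64, adjusted p 0.006).

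Transcription factors of mural cells were mostly high in CD146, among them the coactivator of contractile genes. Of 30 tested, 24 were higher and 10 higher than each population, with a median of 1.68. Myocd, the coactivator that binds serum response factor on contractile genes, had 20.7, 33.3, 28.5 and 28.5 FPKM in CD146 Trap libraries and 21.6 and 18.6 FPKM in CD146 controls. No other library passed 0.61 FPKM, and the difference was 4.52 ± 0.11 (adjusted p 2.37e-21). Srf itself averaged 23.3 ± 2.69 FPKM in CD146, against 39.7 FPKM in cTEC and 19.2 to 29.5 FPKM in the other populations (-0.27 ± 0.11, adjusted p 0.0519), and it was called lower in 12 alternatives. Nr2f2, a nuclear receptor of venous vessels, averaged 48.2 FPKM in CD146 and 13.2 FPKM in Endo. Foxc2 (22 FPKM), Tbx2 (14.1), Foxs1 (15), Ebf1 (95.1) and Mef2c (30.1) were also higher than in each population. Prrx1, a mesenchymal homeobox gene, was shared with CD140a at 51.1 ± 4.10 FPKM in CD146 and 45.1 ± 4.63 FPKM in CD140a. Epas1, the hypoxia-inducible factor HIF-2 alpha, averaged 233 ± 40.0 FPKM in CD146 and 374 ± 27.6 FPKM in Endo, with at most 9.22 FPKM in the other populations.

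Serum response factor binds the CArG box, CC followed by 6 A or T and then GG. The box was searched for on both strands from 250 bases before to 50 bases after each RefSeq gene start (GRCm38.p6), and 12 of 553 genes higher than each population held it, against 202 of the 11927 tested genes with a promoter entry. In the contractile list 2 of 24 did. The windows of 6 of the 7 genes with the largest differences among the 12 are shown in the orientation of the gene, to show where the box stands in them, with the box in capitals. The box begins 161 bases before the start of Myl9, 49 before Rergl, 99 before Myom1, 122 before Trpc6, 62 before Filip1l, and 109 or 35 before the 2 listed starts of Ldb3.
Myl9, chr2:156775278-156775337, plus strand: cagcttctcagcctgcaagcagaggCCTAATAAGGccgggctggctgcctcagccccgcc
Rergl, chr6:139501924-139501983, minus strand: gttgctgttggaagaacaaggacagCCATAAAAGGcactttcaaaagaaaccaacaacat
Myom1, chr17:71019433-71019492, plus strand: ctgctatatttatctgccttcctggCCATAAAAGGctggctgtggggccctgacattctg
Trpc6, chr9:8543995-8544054, plus strand: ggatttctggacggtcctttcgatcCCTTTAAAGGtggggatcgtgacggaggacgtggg
Ldb3, chr14:34588682-34588741, minus strand: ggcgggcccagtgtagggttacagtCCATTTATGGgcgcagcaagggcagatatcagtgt
Filip1l, chr16:57549155-57549214, plus strand: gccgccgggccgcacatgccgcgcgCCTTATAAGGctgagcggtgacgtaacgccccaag
A match is a description of the letters and not a site of binding.

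The genes of these windows had the following levels. Rergl, a small Ras-like GTPase gene, had 37.6, 12.1, 30.1 and 34.9 FPKM in CD146 Trap libraries and 17.1 and 12.3 FPKM in CD146 controls, and was at 0 in all CD140a, cTEC and mTEC libraries and at 0.31 FPKM or less in Endo. Myom1, the M-band protein myomesin, averaged 52.9 ± 10.2 FPKM in CD146 and at most 3.97 FPKM elsewhere, and Ldb3, a Z-disc protein, averaged 7.86 FPKM against at most 0.95 FPKM. Filip1l averaged 229 ± 18.7 FPKM in CD146 and 105 ± 15.1 FPKM in CD140a. Myom1 overlaps Myl12a and Filip1l overlaps Cmss1 on the opposite strand. The core of the site bound by RBPJ, the DNA-binding partner of Notch, is TGGGAA, and it was searched for on either strand. It was found in 7 of 13 pericyte promoters (53.8%), 8 of 15 of the channel list (53.3%) and 6 of 9 of the cyclic GMP list (66.7%). Kcnj8 and Abcc9 belong to both the pericyte and the channel list. The core was in 9 of 24 contractile promoters (37.5%) and 8 of 25 of the vasoactive receptor list (32.0%). It was in 3 of 12 promoters of the Notch list (25%), 31.5% of those of genes higher than each population and 27.4% of all tested. These shares carry no test.

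Genes for calcium and potassium handling were higher in 22 of 24 cases and higher than each population in 17, with a median difference of 2.10. Ano1, the calcium-activated chloride channel that depolarises vascular muscle, had 103, 85.4, 110 and 125 FPKM in CD146 Trap libraries and 61.7 and 118 FPKM in CD146 controls, and at most 4.46 FPKM in any other library (5.47 ± 0.21). Cacna1c, the pore of the L-type calcium channel, averaged 41.6 ± 6.46 FPKM in CD146 and 6.57 FPKM in CD140a. Trpc6, a cation channel opened by diacylglycerol, averaged 8.96 ± 1.27 FPKM in CD146. The ryanodine receptor Ryr2 averaged 8.58 FPKM in CD146 and at most 0.65 FPKM elsewhere. The 2 members that were lower were Kcnma1, the pore of the large-conductance calcium-activated potassium channel (1.23 FPKM in CD146, 11.5 in mTEC), and Ryr3 (0.68 FPKM in CD146, 4.47 in cTEC). Kcnmb1, the smooth muscle subunit of the same potassium channel, was higher than in each population at 4.38 FPKM. The lower call of Kcnma1 was lost in 5 alternative analyses, among them TPM scaling (-0.34, adjusted p 0.20), and that of Ryr3 in 2, control libraries only (-0.62, adjusted p 0.080) and the reference without cTEC (-0.23, adjusted p 0.24).

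Genes of the nitric oxide and cyclic GMP pathway were mostly higher. Of 15 genes 10 were higher, 8 of them than each population. The 4 that were lower were the nitric oxide synthase genes Nos1 and Nos3 and the phosphodiesterase genes Pde1c and Pde4d. Gucy1a3 and Gucy1b3 encode both subunits of soluble guanylate cyclase, the receptor for nitric oxide. Gucy1a3 had 152, 141, 174 and 163 FPKM in CD146 Trap libraries and 130 and 171 FPKM in CD146 controls, against 3.78 to 14.8 FPKM in Endo and at most 3.39 FPKM elsewhere (6.05 ± 0.21, adjusted p 2.68e-18). Gucy1b3 averaged 82.1 ± 11.1 FPKM in CD146 and 3.62 ± 1.12 FPKM in CD140a (5.26 ± 0.17). Downstream, the cyclic GMP-dependent kinase Prkg1 averaged 38.1 ± 3.24 FPKM and its calcium store target Mrvi1 41.7 ± 4.88 FPKM in CD146. The phosphodiesterases Pde3a (162 ± 6.80 FPKM), Pde1a (65.0 ± 3.39) and Pde5a (36.5 ± 1.46), which break down cyclic nucleotides, were among the least variable higher genes, since the coefficient of variation over the 6 CD146 libraries was 4.19% for Pde3a and 4.00% for Pde5a against a median of 17.4% over 2309 higher genes at 5 FPKM or more. Nos3, which makes nitric oxide in endothelium, was at 0.12 FPKM or less in every CD146 library and averaged 11.9 FPKM in Endo. Pde1c averaged 0.29 FPKM in CD146 and 18.7 FPKM in mTEC. The lower call was lost in 4 alternatives for Nos1 and, without Endo in the reference, for Nos3.

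Receptors for vasoactive hormones were mixed: of 30 tested, 15 were higher, 9 of them than each population, 6 were lower and the median was 0.39. Ednra, the endothelin A receptor that constricts vessels, had 138, 113, 146 and 181 FPKM in CD146 Trap libraries and 135 and 142 FPKM in CD146 controls, with 47.5 ± 7.86 FPKM in CD140a and at most 5.62 FPKM in any library of the other 3 (4.38 ± 0.12). Its ligand gene Edn1 ran from 90.9 to 244 FPKM in Endo and from 0.30 to 2.48 FPKM in CD146, where it was lower than in each population. Ednrb, the endothelin B receptor, averaged 60.0 ± 11.5 FPKM in CD146 and 35.3 ± 11.7 FPKM in Endo. Npy1r, a neuropeptide Y receptor, averaged 24.1 ± 2.68 FPKM in CD146 and passed 1.60 FPKM in no other library. Avpr1a, a vasopressin receptor (36.8 FPKM), Adra2a, an adrenergic receptor (17.7 FPKM), and Ptgir, the prostacyclin receptor (12.6 FPKM), were also higher than in each population. Of the angiotensin receptors Agtr1a was alike in both mesenchymal populations, at 8.53 FPKM in CD146 and 8.34 FPKM in CD140a. Agtr2 differed between them, at 2.32 FPKM in CD146 and 244 FPKM in CD140a.

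**Figure D2:**
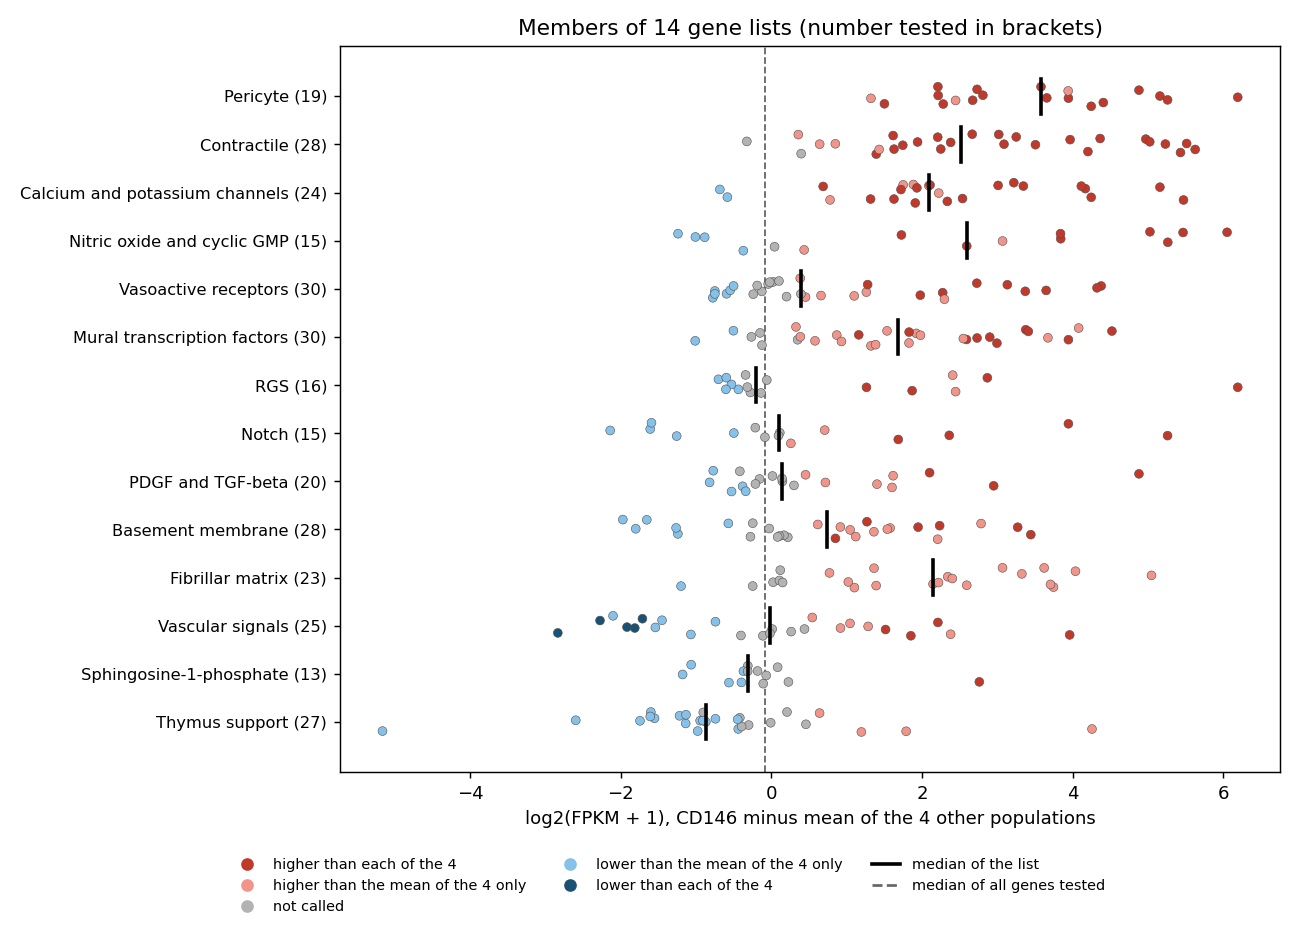
Difference in log2(FPKM + 1), CD146 minus the mean of the 4 other populations, for each tested member of 14 gene lists. Each point is a gene coloured by its call, thick bars are list medians and the dashed line is the median of all genes tested (-0.08); pericyte, contractile, channel and cyclic GMP genes lie mostly to the right, and thymus support and sphingosine-1-phosphate genes mostly at or left of 0.

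Olfr558 and Olfr560, both olfactory receptor genes on chromosome 7, were higher than in each population. Olfr558, an odorant receptor gene known from vascular smooth muscle of mouse, had 57.9, 47.2, 48.5 and 44.7 FPKM in CD146 Trap libraries and 51.3 and 50.3 FPKM in CD146 controls. It passed 0.13 FPKM outside CD146 only in Endo, at most at 4.27 FPKM, and the difference was 5.40 ± 0.18. Olfr560 averaged 2.62 FPKM in CD146, and its annotated span lies inside that of Olfr78 on the same strand, so reads cannot be assigned to one or the other with certainty. Adap2, a binding protein of phosphoinositides, completed the genes of largest difference with 74.7, 41.4, 84.4 and 108 FPKM in CD146 Trap libraries and 40.7 and 61.9 FPKM in CD146 controls (5.42 ± 0.23).

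Regulators of G protein signalling, Notch genes and growth factor genes did not move as whole families. Of 16 genes of the first family 6 were higher and 5 lower, where over all genes tested 19.2% were higher and 26.2% lower. Beside Rgs5, Rgs7bp (13.9 FPKM), Rgs6 (3.08 FPKM) and Rgs8 (2.12 FPKM) were higher in CD146 than in each population, and Rgs16 averaged 69.6 FPKM in CD146 and 45.5 FPKM in CD140a. Of 15 Notch genes 6 were higher and 5 lower. Those higher than each population were Notch3, its targets Heyl (67.9 FPKM) and Hey2 (7.86 FPKM), and the ligand gene Jag1, at 71.1 ± 6.87 FPKM in CD146 and 32.6 ± 8.08 FPKM in Endo. The Delta and second Jagged ligands were lower, with Dll1 at 1.03 FPKM in CD146, 28.5 FPKM in cTEC and 12.3 FPKM in Endo. Of 20 genes of platelet-derived and transforming growth factor signalling 8 were higher and 5 lower, and Pdgfrb, Bmp5 (12 FPKM) and the ligand gene Pdgfa (76.8 FPKM in CD146, 34.7 in Endo) were higher than each population. Pdgfb, the ligand that recruits mural cells, averaged 2.37 FPKM in CD146 and 56.6 FPKM in Endo.

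Basement membrane genes were higher in 15 of 28 cases and lower in 6, where over all genes tested 19.2% were higher and 26.2% lower. Itga7, a laminin-binding integrin, averaged 18.4 ± 3.92 FPKM in CD146 and at most 1.16 FPKM elsewhere. Itga1, a collagen-binding integrin, averaged 62.4 FPKM in CD146 and 24.8 FPKM in Endo, but its span overlaps RP24-476A4.1 (326 FPKM in CD146, also higher than each population) and Pelo on the same strand, so the assignment of its reads is uncertain. Lamb2 (35 ± 1.79 FPKM) and Col4a5 (14.8 FPKM) were higher than each population. The main type IV chains Col4a1 (302 ± 18.6 FPKM) and Col4a2 (260 ± 32.1 FPKM) were below Endo, which averaged 399 and 391 FPKM. Chains of the epithelial laminin and its integrin were low, with Lama3 at 4.32 FPKM in CD146 and 95.2 FPKM in cTEC, and Itgb4 at 2.15 FPKM in CD146 and 33.2 FPKM in mTEC.

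Fibrillar matrix genes were higher in 17 of 23 cases, but none was higher than each population. Postn, periostin, averaged 524 ± 25.2 FPKM in CD146 and 786 ± 97.8 FPKM in CD140a, and no library of the other 3 populations passed 10.5 FPKM (5.05 ± 0.11). Col6a3 averaged 95.0 FPKM in CD146 and 161 FPKM in CD140a, and Col3a1 199 ± 8.18 FPKM in CD146 and 1870 FPKM in CD140a. Col1a1 had 71.0, 166, 53.3 and 48.0 FPKM in CD146 Trap libraries and 134 and 30.5 FPKM in CD146 controls, all far below the CD140a range of 1068 to 1525 FPKM. Only Eln had its highest mean in CD146, at 287 FPKM against 106 FPKM in Endo, and that mean rests on 2 libraries: the other 4 stood at 21.2 to 131 FPKM.

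Some genes of elastic fibres divided the 6 CD146 libraries, and Eln, Fbln5, Mfap4 and Lox were picked out for this spread after their values were seen. Others did not spread in this way, such as the fibrillin gene Fbn1 (149 FPKM in CD146, coefficient of variation 17.4%) and Mfap5 (32.7%). Eln, elastin, had 131, 765, 42.6 and 21.2 FPKM in CD146 Trap libraries 1 to 4 and 739 and 25.8 FPKM in CD146 controls 1 and 2. Fbln5, which tethers elastin to cells, had 11.3, 83.5, 6.17 and 0.54 FPKM in the Trap and 79.8 and 1.23 FPKM in the control libraries. Mfap4 had 4.28, 87.9, 2.11 and 0.21 FPKM in the Trap and 61.7 and 0.33 FPKM in the control libraries. The same libraries, Trap 2 and control 1, were the highest for all 3 genes, for the crosslinking enzyme gene Lox (159 and 147 FPKM, with 12.2 to 36.8 FPKM in the other 4) and for Itga8 (123 and 106 FPKM, with 26.7 to 53.2 FPKM). Coefficients of variation were 126% for Eln, 131% for Fbln5, 148% for Mfap4 and 104% for Lox, against a 90th percentile of 34.9% over higher genes. Rgs5 was lowest in the same libraries, at 2783 FPKM in Trap 2 and 3260 FPKM in control 1, and so was Notch3, at 79.8 and 72.4 FPKM. Both libraries were often the lowest for pericyte genes, since of 18 that averaged 5 FPKM or more Trap 2 was the lowest for 9 and control 1 for 6. This was not particular to pericyte genes. Of 17 channel genes Trap 2 was the lowest for 5 and control 1 for 8, and of 22 mural transcription factors for 7 and 8. Of 22 fibrillar matrix genes Trap 2 was the lowest for 1 and control 1 for 4. The share over all genes was not counted. Trap 2 and control 1 differed in contractile genes, since of 26 Trap 2 was the highest for 12 and the lowest for 4, and control 1 was the highest for 2 and the lowest for 6. Fewer cells of one type and less RNA per cell cannot be told apart in such bulk libraries, and whether the mix of cells differed between these sorts was not tested.

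In Endo the Trap library 2 was also the highest for Eln (267 FPKM, with 28.1 to 144 FPKM in the others), and in CD140a Eln kept to 17.9 to 43.9 FPKM. CD140a Trap 2 and CD140a control 1 held more Rgs5 (23.3 and 39.4 FPKM) than the other CD140a libraries (0.51 to 4.28 FPKM). Without CD146 Trap 2 and CD146 control 1 the Eln difference was 1.87 (adjusted p 0.000344), against 3.32 ± 0.53 with them, and Lox no longer passed (0.36, adjusted p 0.408, against 1.39 ± 0.40), as in 5 alternatives in all. Fbln5 and Mfap4, not called with all libraries (0.12 and 0.11), were called lower at -1.42 and -1.66, while with all libraries and no CD140a in the reference Mfap4 was called higher at 1.79 (adjusted p 0.017). Acta2 (5.40), Cnn1 (2.05) and Rgs5 (6.35) remained called, and 2802 genes were higher and 3795 lower in that setting. It was chosen after the data were seen.

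**Figure D3:**
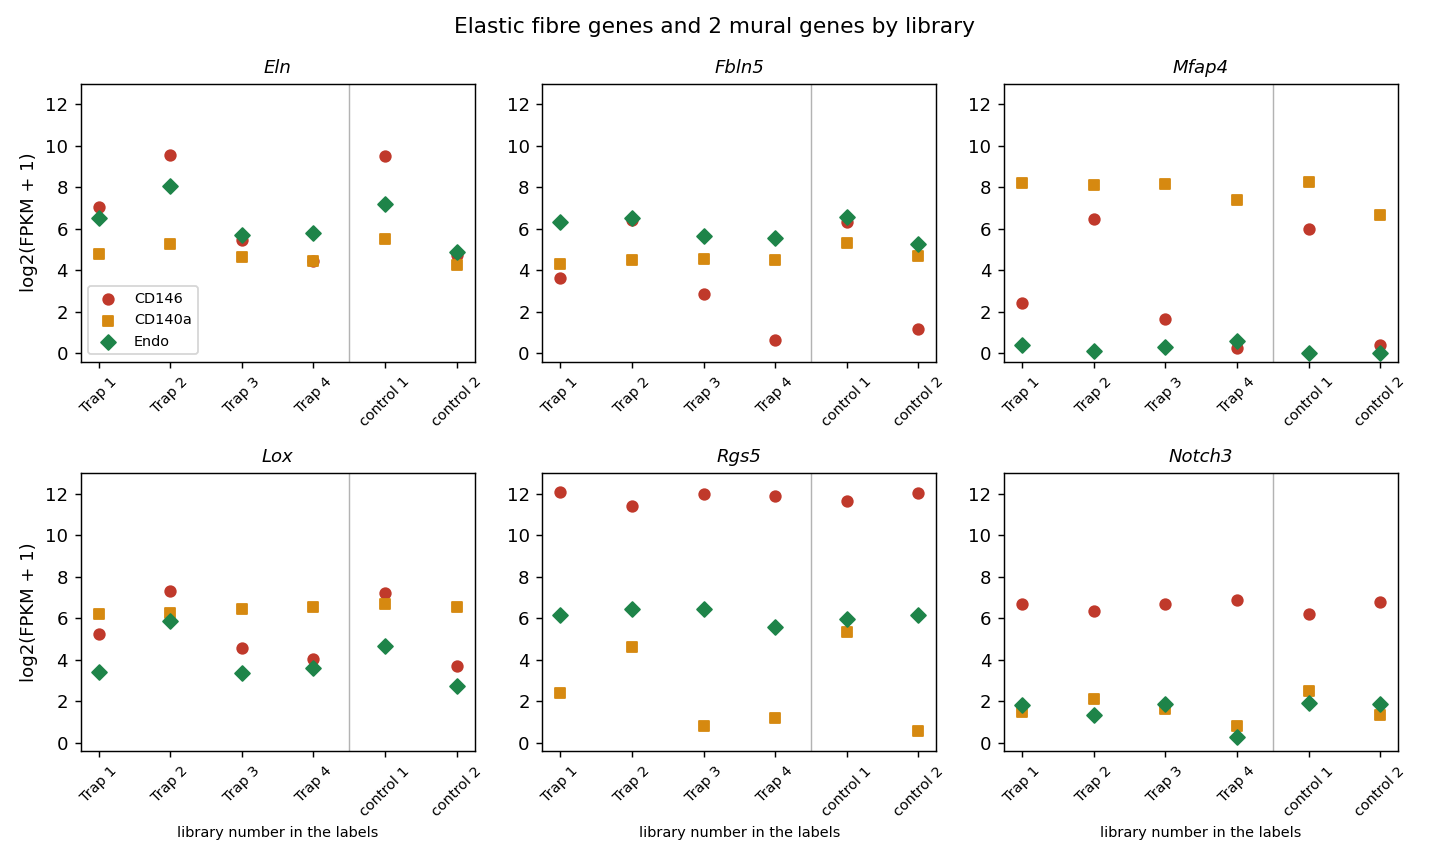
Expression of Eln, Fbln5, Mfap4, Lox, Rgs5 and Notch3 in each library of CD146, CD140a and Endo, as log2(FPKM + 1), with library numbers as in the labels. Within CD146, Trap 2 and control 1 are the highest for the 4 elastic fibre genes and the lowest for Rgs5 and Notch3.

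Signals between mural cells and endothelium were as often lower as higher: 9 of 25 higher, 10 lower and a median of -0.02. Angpt1, a ligand of the endothelial receptor Tek, averaged 11.1 ± 1.71 FPKM in CD146, 5.48 FPKM in cTEC and 0.19 FPKM in Endo. Sema5a, a guidance molecule, averaged 66.6 ± 3.15 FPKM in CD146 and 31.0 ± 2.70 FPKM in CD140a, and Pgf, placental growth factor, 8.64 FPKM in CD146 and at most 4.79 FPKM elsewhere. Vegfa, whose product aflibercept captures, averaged 21.6 ± 1.45 FPKM in CD146 and 58.0 FPKM in CD140a and did not pass the test (0.01 ± 0.08); it was called higher without CD140a in the reference (0.47) and lower without Endo (-0.29). Edn1, Adm, Apln, Vegfc and Sema3a were lower than in each population, at 0.19 to 2.45 FPKM in CD146, and 245 genes in all (1.49%) were.

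Sphingosine-1-phosphate draws mature T cells out of the thymus into blood. Of 13 genes for its synthesis, breakdown, transport and receptors 5 were lower and 1, the receptor S1pr3, was higher, with 99.3, 53.5, 77.8 and 73.7 FPKM in CD146 Trap libraries and 98 and 103 FPKM in CD146 controls, against 30.4 to 47.9 FPKM in cTEC (2.76 ± 0.13). S1pr1 was the endothelial receptor, at 4.21 FPKM in CD146 and 110 FPKM in Endo, and Sgpl1, the lyase that degrades the lipid, averaged 14.8 FPKM in CD146 and 89.6 FPKM in mTEC. Of 27 genes for thymus-supporting factors 4 were higher and 16 lower, none than each population. Ccl11, eotaxin, was the largest at 221 ± 39.8 FPKM in CD146 and 284 ± 40.2 FPKM in CD140a. Il7, the T cell growth factor, averaged 0.55 FPKM in CD146 and 77.6 FPKM in cTEC, and the chemokine gene Ccl21a 1.17 FPKM in CD146 and 948 FPKM in mTEC. Ccl21a is one of several near-identical copies in mouse, so its reads may be split.

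Genes lower than in each population were fewer than those higher. In 50 of them that averaged 5 FPKM or more in each other population, all 6 CD146 libraries lay below the 24 others, and the 10 of these named here had the largest pairwise difference from the nearest population. They were S100a16, Gja1, Mcc, Tgfbi, Ly6a, Plscr1, Sh3bgrl3, Ly6e, Plekhg1 and Enc1. Ly6a, the surface antigen Sca-1, had 6.07, 0.51, 4.16 and 1.68 FPKM in CD146 Trap libraries and 2.10 and 4.65 FPKM in CD146 controls, and ranged from 10.8 to 578 FPKM in the 24 others (-5.32 ± 0.22). Its interferon-induced relative Ly6e averaged 9.21 ± 1.58 FPKM in CD146 and 33.4 to 169 FPKM elsewhere (-3.15 ± 0.12). S100a16, a calcium-binding protein gene, was at 1.05 FPKM or less in CD146 and at 4.83 FPKM or more in every other library (-3.16 ± 0.18). Gja1, connexin 43, had 0.55, 3.40, 0.39 and 0.38 FPKM in CD146 Trap libraries and 4.63 and 0.58 FPKM in CD146 controls, against 8.83 to 29.4 FPKM elsewhere (-2.96 ± 0.22), and its 2 highest CD146 libraries were those high in Eln. Mcc averaged 1.95 ± 0.53 FPKM in CD146 and 12.7 to 50.2 FPKM elsewhere, and Plscr1, a phospholipid scramblase, 1.58 FPKM in CD146 and 9.96 to 52.3 FPKM elsewhere. Tgfbi (-3.02 ± 0.20), Sh3bgrl3 (-2.61 ± 0.22), Plekhg1 (-2.28 ± 0.14) and Enc1 (-2.11 ± 0.12) completed the group.

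**Figure D4:**
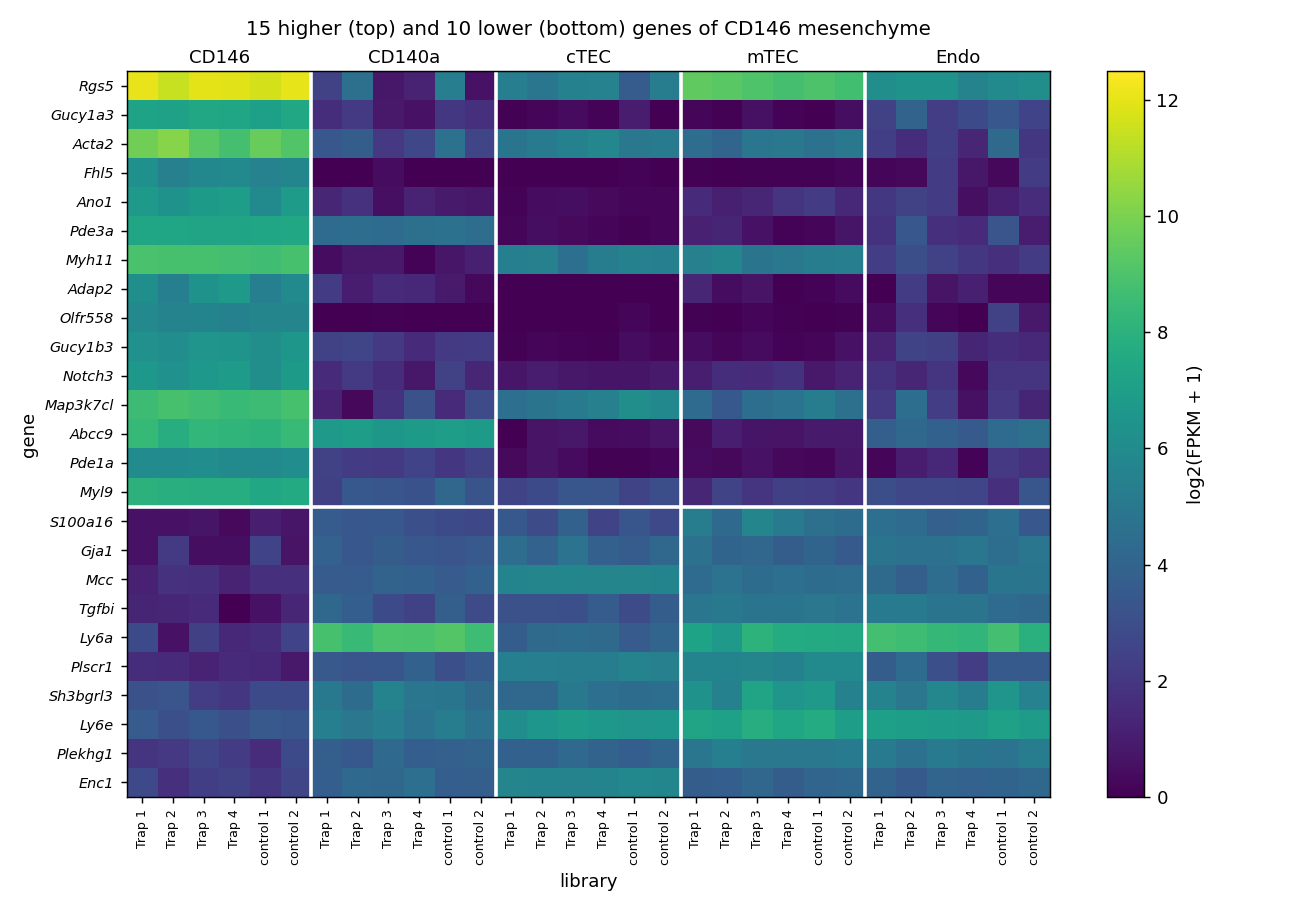
Expression of 15 genes higher and 10 genes lower in CD146 than in each other population, in all 30 libraries, as log2(FPKM + 1), with CD146 columns at the left. Brighter colours mark higher values; the 6 CD146 columns are the brightest in each of the upper 15 genes and the darkest in each of the lower 10, and mTEC shows the next highest Rgs5.

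Part of the signature did not stand above CD140a or did not stand above Endo. Among 415 genes that were higher in CD146 but not higher than CD140a while passing against the other 3 populations, Postn, Ccl11, Prrx1, Col6a3 and Cpe had the largest differences. Postn (-0.58, adjusted p 0.0018 by limma) and Col6a3 (-0.75, adjusted p 3.1e-05) were lower in CD146 than in CD140a, and Ccl11, Prrx1 and Cpe were not called against it. Cpe, carboxypeptidase E, averaged 211 ± 54.1 FPKM in CD146 and 130 ± 44.7 FPKM in CD140a. Among 256 genes that were likewise higher in CD146 but not higher than Endo, Mcam, Igfbp7, Epas1, Lrrc32 and Eln led. Mcam is the gene of the sorted marker and no finding. Not being higher is no proof of equal levels. Epas1 was lower in CD146 than in Endo (-0.70, adjusted p 4.4e-05 by limma), and Eln had a wide error (0.45 ± 0.67 against Endo). Igfbp7 averaged 602 ± 59.2 FPKM in CD146 and 729 ± 204 FPKM in Endo, and Lrrc32, which anchors latent transforming growth factor beta, 84.8 ± 14 FPKM in CD146 and 108 ± 15.8 FPKM in Endo.

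Summed markers of fibroblasts, endothelium and epithelium were lower in CD146 than in the population they mark, and single markers were called higher than the mean of the 4. The fibroblast, endothelial, epithelial and T cell lists hold genes of the sort itself, namely Pdgfra, Pecam1, Epcam, Ptprc, Cd3e, Cd4 and Cd8a. These genes were not taken out of the sums and counts, and their levels are a check of the sort and no finding. Summed FPKM of 17 fibroblast markers was 97.3 to 146 in CD146 libraries and 3298 to 4674 in CD140a, and Pi16, Dpp4, Clec3b and Scara5 were below 1 FPKM in all 6. For 16 endothelial markers the sum was 44.9 to 57.4 in CD146 and 2041 to 2314 in Endo, with Kdr, Tie1, Robo4, Egfl7, Sox17, Sox18 and Cldn5 below 1 FPKM throughout. For 16 epithelial markers it was 2.66 to 16.5 in CD146 and 2462 to 4078 in the epithelia. A list of 18 T cell, leukocyte and haemoglobin genes, the last being Hba-a1 and Hbb-bs, summed to 26.0 to 73.6 in CD146 and 237 to 389 in mTEC. Called higher than the mean of the 4, but not than each, were 4 of 17 fibroblast markers (Dpt, Gsn, Tcf21 and Thy1) and 2 of 16 endothelial markers (Esam and Eng). In the list of T cell, leukocyte and haemoglobin genes 3 of 17 tested were (Csf1r, Cd68 and Cd79a). Over all genes tested the share called higher was 19.2%. Called lower were 10 of 17 fibroblast markers, 12 of 16 endothelial markers and 12 of 17 of the third list, against 26.2% of all genes tested. Thy1 averaged 16.2 FPKM in CD146 and 47.1 FPKM in CD140a, Esam 18.1 FPKM in CD146 and 50.6 FPKM in Endo, and the macrophage gene Cd68 28.5 FPKM in CD146 and 31.8 FPKM in Endo. The calls of Cd68 and Tcf21 were lost in 4 alternatives each, and those of Csf1r and Cd79a in 6 each. Dpt lost its call in 2 alternatives and changed sign in 2 others, and Eng changed sign in 2. Of Schwann cell markers 7 of 10 tested were higher and 5 higher than in each population, among them Sox10, Cdh19 and Fabp7. Sox10, their defining transcription factor, had 3.77, 3.84, 5.69 and 1.44 FPKM in CD146 Trap libraries and 1.82 and 2.08 FPKM in CD146 controls, and at most 1.11 FPKM in any other library. Summed over all 11 members the list gave 31.1 to 59.5 FPKM in CD146 and 44.1 to 66.7 FPKM in mTEC, and the part of such cells in other results was not tested. Immediate early genes, which dissociation can induce, were higher in 4 and lower in 6 of 18 cases, near the shares of all genes tested (19.2% and 26.2%). Nr4a1 was higher than each population (71.4 FPKM) and Ier2 lower than each (13.8 to 27.4 FPKM).

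Few genes were called for a Trap change in CD146 mesenchyme 2 days after injection. Of 16425 genes 3 passed (0.0183%), against 822 at an unadjusted p under 0.05 (5%), and 1 gene passed for a Trap change that differed from that of the other 4 populations (0.00609%; 3.91% at an unadjusted p under 0.05). Mcm3, a subunit of the replicative helicase, fell to 2.59, 5.08, 3.22 and 3.42 FPKM in CD146 Trap libraries, against 10.7 and 10.1 FPKM in CD146 controls (-1.35, adjusted p 0.024 by limma). Olfr560 rose to 2.31, 4.55, 4.52 and 2.53 FPKM in Trap libraries, against 0.95 and 0.86 FPKM in controls (1.19, adjusted p 0.024). RP23-149C6.7 was at 0, 0.15, 0.15 and 0 FPKM in Trap libraries and at 4.20 and 5.11 FPKM in controls (-2.39, adjusted p 0.00012), and was the gene whose change differed from the other populations. Olfr560 and RP23-149C6.7 averaged under 5 FPKM in both groups and were named after their values were seen. With only 2 control libraries these counts depend on single libraries: 19 genes passed without CD146 control 1, 8 without CD146 control 2, 5 without CD146 Trap 2 and 6 without CD146 Trap 4.

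No pericyte, contractile or channel gene passed the Trap test. On the log2 scale Trap minus control was 0.00 ± 0.82 for Rgs5, 0.10 ± 0.27 for Myh11 and 0.15 ± 0.37 for Notch3 (SE). Errors of this size do not show that these genes were unchanged. Of 23 cell cycle genes all had a Trap minus control difference below 0 in CD146, with a median of -0.61, and 1 was called. Over all genes tested 7993 differences were below 0 and 7760 above. Among the 13 cell cycle genes at 5 FPKM or more, control 1 was the highest library for 10 and Trap 4 the lowest for 9. None of the 23 was called for a Trap change that differed from the other 4 populations. CD146 minus the mean of the 4 was higher in Trap than in control libraries for Ccnb2 (-0.29 and -0.61), Ccnd1 (0.43 and -0.05), Mcm6 (0.02 and -0.25) and Rrm1 (0.07 and -0.22). For the other members it was lower in Trap libraries. The genes higher than the mean of the 4 populations numbered 2615 in Trap libraries alone (15.9%) and 1757 in control libraries alone (10.7%), where 2 CD146 libraries entered in place of 4.

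Genes higher in CD146 than in each population often lay side by side. Of the 741, 238 (32.1%) had an adjacent tested gene that was also higher than each, and this held for 1171 of 15674 other tested genes (7.47%) as a neighbour of one. Counting only neighbours that do not overlap gave 26.5% and 6.96%. Gucy1b3 and Gucy1a3, both subunits of guanylate cyclase, stand 17737 bases apart on chromosome 3, and Kcnj8 and Abcc9, both parts of the ATP-sensitive potassium channel, stand 16247 bases apart on chromosome 6. Pde3a lies 16919 bases from Slco1c1, also higher than each, and Gjc1 16148 bases from the pericyte gene Higd1b. These counts describe positions and carry no test.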

How the data were processed

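The deposited table holds 1 FPKM value per gene and library for 18847 protein-coding genes and 30 libraries of total RNA, sequenced as amplified cDNA per the labels' protocols. The submitters' processing notes name bcl2fastq 2.17, STAR, DESeq2 and the builds GRCm38 and mm10. The step each tool served, the annotation and the strand setting of the counting were not found in the sources at hand. Symbols that a spreadsheet had turned into dates (27) were restored, and 18836 gene IDs matched GENCODE M21. Genes at 1 FPKM or more in at least 2 libraries (16425) were fitted as log2(FPKM + 1) with limma 3.58.1 in R 4.3.3: 10 group means, 20 residual degrees of freedom, a trended prior, two-sided tests and Benjamini-Hochberg adjustment over all genes. The fit was tested on simulated data. The members, the gene lists and the rule for named genes were chosen with earlier results of these data known. That rule took, among genes whose CD146 libraries did not overlap the 24 others, the 15 higher by the largest difference from the mean of the 4 populations and the 10 lower by the largest difference from the nearest population, then 5 genes each shared with CD140a and Endo, and any member of a list. Rergl, Myom1, Ldb3, Filip1l, Slco1c1, Gjc1, Olfr560, RP24-476A4.1, Pelo and RP23-149C6.7 fall outside it and were chosen after their values were seen. Alternatives covered the pseudocount, filter, scaling, variance model, weights and libraries left out. Promoters are RefSeq's, build GRCm38.p6. Values of some list members are not reported here.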

Additional observations from a re-analysis of the deposited data

Results flagged for a closer look

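Over 159 genes examined for a CD146 library far from the others, 7 were flagged. Chance flags about 1 in 20, so this count is no more than chance gives. Higd1b, a pericyte gene, was at 26.39 FPKM in CD146 control 2, with 10.5 FPKM in the nearest library. Cald1, caldesmon, was at 277.74 FPKM in CD146 Trap 1, with 238.94 FPKM in the nearest. Pde3a was at 175.02 FPKM in CD146 control 2, with 162.49 FPKM in the nearest. Slit3, a guidance ligand, was at 67.16 FPKM in CD146 Trap 2, with 35.13 FPKM in the nearest. Trap 2 is one of the libraries high in elastin, and control 1, the other, did not share this value. Nos3 was at 0.12 FPKM in CD146 Trap 4, with 0.03 FPKM in the nearest, and Nos1 at 0.24 FPKM in the same library, also with 0.03 FPKM in the nearest. Esam was at 24.96 FPKM in CD146 control 2, with 18.54 FPKM in the nearest. The Trap change of RP23-149C6.7 in CD146 differed from the average of its Trap changes elsewhere by -2.296 on the log2 scale (limma's interaction contrast). It was at 0 to 0.15 FPKM in CD146 Trap libraries and at 4.20 and 5.11 FPKM in CD146 controls, and no library of the other populations passed 1.33 FPKM.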

How the results depend on the processing

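Among genes called in the CD146 difference and named here with their own values, the direction held in every alternative run except for 9 genes. Mcm3 was 0.11 in control libraries only, RP23-149C6.7 was -0.066 in Trap libraries only, and S1pr1 was 0.047 without Endo in the reference. Agtr2, Pdgfra and Pdgfb, each high in 1 other population, were lower in the reported difference. With log2(FPKM + 0.1) they were 0.62, 0.60 and 0.039, with TPM Agtr2 was 0.32 and Pdgfra 0.42, without CD140a in the reference Agtr2 was 1.30 and Pdgfra 1.26, and without Endo Pdgfb was 0.68. Dpt was -0.36 without mTEC and -0.25 without Endo, Eng -0.22 without cTEC and -0.11 without mTEC, and Mfap5 0.52 without CD140a. Sncg, Vegfa, Fbln5 and Mfap4, not called with all libraries, changed sign in some alternatives, and Vegfa was called lower at -0.29 without Endo and higher at 0.47 without CD140a. Without CD146 Trap 2 and CD146 control 1, a setting chosen after seeing the data, Fbln5 was -1.42 and Mfap4 -1.66, while Mfap4 was called higher at 1.79 without CD140a. In control libraries only, 1757 genes were higher, 2389 lower, 381 higher than each and 91 lower than each, with fewer libraries in the contrast. Without CD140a in the pairwise comparisons 1375 genes were higher and 799 lower than each, without Endo 631 were lower than each, and without mTEC in the reference 2847 were lower; fewer conditions or another reference enter there. The Trap count of 3 became 13 with no filter, 1 with a filter at 5 FPKM, 5 with TPM, 6 with array weights and 16 without both libraries. The count of 1 for a Trap change particular to CD146 became 2 with no filter, 0 with a filter at 5 FPKM, 0 with TPM and 10 without both libraries (limma; 643 genes were at an unadjusted p under 0.05 in the reported analysis). The cause of these moves was not tested. Leaving out 1 library at a time gave 2802 to 3249 higher, 3747 to 4457 lower, 674 to 756 higher than each, 204 to 257 lower than each, 2 to 19 Trap genes and 1 to 12 Trap changes particular to CD146. Deviations from the group means correlated at -0.00481 to 0.0653 between CD146 and same-numbered libraries of the other populations. Deviations of libraries of different numbers were not compared. A limma fit that took same-numbered libraries of a treatment as correlated gave a consensus correlation of 0.0137. Little variation was thus shared by number, but whether the replicate numbers record a pairing of the libraries cannot be told from these values. With the replicate block 3210 genes were higher, 4359 lower, 759 higher than each and 256 lower than each, the Trap counts were 3 and 1, and Srf passed at -0.27 (adjusted p 0.027), as it did in 11 other alternatives; the block changed no other call of a gene named here. Depth is unknown, and 4 Trap against 2 control libraries limit the treatment comparison.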
